A study of Danio rerio with 3 samples.

Results

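The transcript pool of the wild-type zebrafish larva on day 7 after fertilization was described from the control library of the study, 1 of its 3 RNA-seq libraries. The library was made from 30 whole larvae of the AB strain, wild type in genotype. Their medium held doxycycline at 40 µg/mL between days 3 and 7. In the study it was the reference for larvae with altered serpini1, the gene of the neuronal serine protease inhibitor neuroserpin, and the drug was given to all groups. Every gene with a control value was a member, 24555 in all, ranked by its FPKM, the number of sequenced fragments scaled to gene length and to library depth. The 30 larvae were pooled in 1 library, so there is no spread between animals or replicates, no test was possible, and each interval is a 95% interval of counting error only.

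At this age a zebrafish larva swims with a trunk built mostly of fast-twitch muscle, sees with a cone-rich retina, and has a working exocrine pancreas, liver and intestine. Muscle, pancreas and lens cells each fill themselves with a few proteins, contractile proteins, digestive enzymes and crystallins, so their genes can take a large part of an RNA sample of the whole body. Ribosomal proteins and translation factors are needed by every cell and are usually among the most abundant messages, and ribosomal proteins are short. In such a sample, fewer cells of a type and less RNA per cell cannot be told apart.

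The depth behind the values was inferred from the deposited p-values, since the files give none, and came to about 7810000 fragments. Fragments of the listed genes, by length less a fitted 110 bases, summed to 0.954 of that depth. What the authors' depth counts is not stated. Of the 24555 genes, 1045 were listed at 0 (4.256%), and the median level was 3.44 FPKM. At the median gene length of 2269 bases, 1 fragment was worth 0.0593 FPKM, and a gene listed at 0 could have had up to 0.178 FPKM, the value of 3 fragments. At least 1 FPKM was reached by 18125 genes (73.81%), at least 10 FPKM by 5615 (22.87%), at least 100 FPKM by 585 (2.382%) and at least 1000 FPKM by 144 (0.5864%). Those 144 genes held 53.58% of the summed FPKM of the library. The 73.81% is the background for each count of list members at or above 1 FPKM that follows. None of the symbols sought for genes of the mitochondrial genome was among the 24555. Not every possible symbol was sought, and clone-named genes cannot be judged by symbol. The shares are therefore taken to be of nuclear genes, which was not checked further.

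The highest gene was actc1b, a sarcomeric alpha actin of the thin filament, at 15910.54 FPKM (15830 to 15990). By itself it held 2.48% of the summed FPKM (2.465 to 2.49%). After it came pvalb2, a parvalbumin that buffers calcium in fast muscle, at 8725.49 FPKM, and eef1a1l1, the elongation factor that brings aminoacyl-tRNA to the ribosome, at 8683.73 FPKM. The counting intervals of these 2 genes overlap (8642 to 8809 FPKM and 8632 to 8735 FPKM), so their order is not settled. The fourth gene was cela1.6, a pancreatic elastase deposited under a clone name, at 7761.98 FPKM, and the fifth pvalb1, the other main muscle parvalbumin, at 6933.32 FPKM. Ranks 6 to 8 were pancreatic proteases: trypsin (try) at 6247.26 FPKM, chymotrypsinogen B1 (ctrb1) at 5483.61 FPKM and the trypsin prss59.2 at 4689.14 FPKM. Ranks 9 and 10 were the fast myosin light chains mylz3 at 4619.96 FPKM and mylpfa at 4344.01 FPKM. All but eef1a1l1 among the 10 highest belonged to muscle or pancreas.

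Together the 10 highest genes held 11.43% of the summed FPKM (11.4 to 11.46%), the 100 highest 44.96% (44.92 to 45.01%) and the 1000 highest 76.59% (76.56 to 76.62%). The 124 highest genes held 50% of the summed FPKM. FPKM counts fragments per length, and many of the highest genes are short. When each gene was weighted by its fragments (FPKM times length) and ranked anew, 413 genes were needed for 50%. The same 100 genes that held 44.96% of the summed FPKM held 28.87% of the fragments. Shares of fragments here and below use the full gene length. The depth fit took 110 bases off each length, which would give short genes a smaller share. With that shorter length, 458 genes were needed for 50%.

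**Figure D1:**
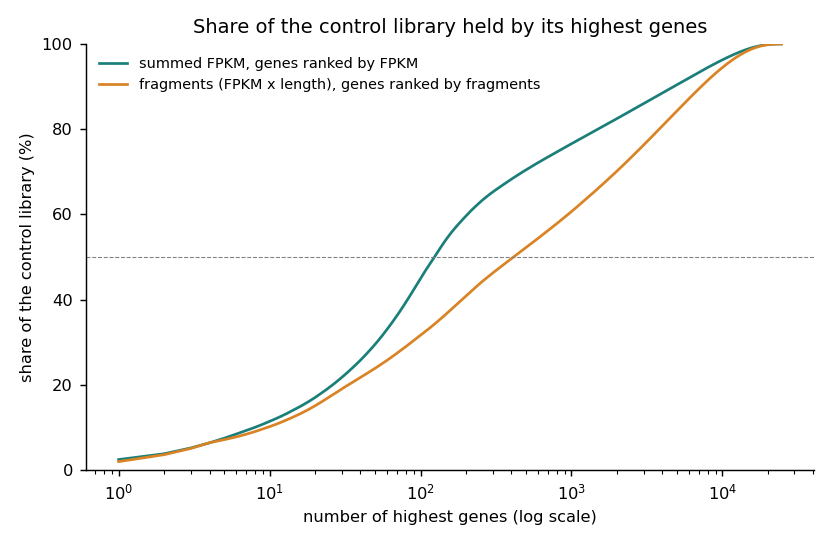
Cumulative share (%) of the control library on the y axis against the number of highest genes on a log x axis, for summed FPKM (green) and for fragments, FPKM times length (orange), each ranked by its own value. The green curve crosses the dashed line at 50% at 124 genes and the orange curve at 413 genes.

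Sorted into lists by organ and by function, 1786 organ genes held 32.04% of the summed FPKM and 2278 genes of general cell functions held 40.36%. A further 5540 genes known only by clone or locus names held 3.947%, and the 14951 genes in no list held 23.65%. By fragments the organ lists held 31.15%, the function lists 26.04% and the genes in no list 38.14%. The largest list was the cytosolic ribosomal proteins with 26.18% of the summed FPKM, followed by skeletal muscle with 12.12%, exocrine pancreas with 6.22%, lens with 4.325%, translation factors with 3.918%, epidermis with 2.595% and liver with 1.933%. By fragments the order of the first 2 lists turned, with skeletal muscle at 13.77% and the ribosomal proteins, whose median length was 594 bases, at 10.88%. Further down, the translation factor list, at 4.17% of the fragments, passed exocrine pancreas, at 3.8%, and epidermis, at 2.861%, passed lens, at 2.151%. The translation factor list also counts tpt1, naca and btf3, at 0.232%, 0.14% and 0.108% of the fragments. By FPKM times full length, its place above exocrine pancreas depends on counting them. Shares of single lists with the length less 110 bases were not computed, so this dependence may not hold there. The pancreas share rests on few genes as well, and was 2.77% of the summed FPKM without the 10 highest genes of the library. Of 95 defining markers of the 23 organ lists, 94 were matched and 88 were at or above 1 FPKM, beside 73.81% of all genes. Of the 3 kidney markers 1 reached 1 FPKM, of the 3 germ line markers 0, and of the 4 endothelium and thrombocyte markers 3.

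**Figure D2:**
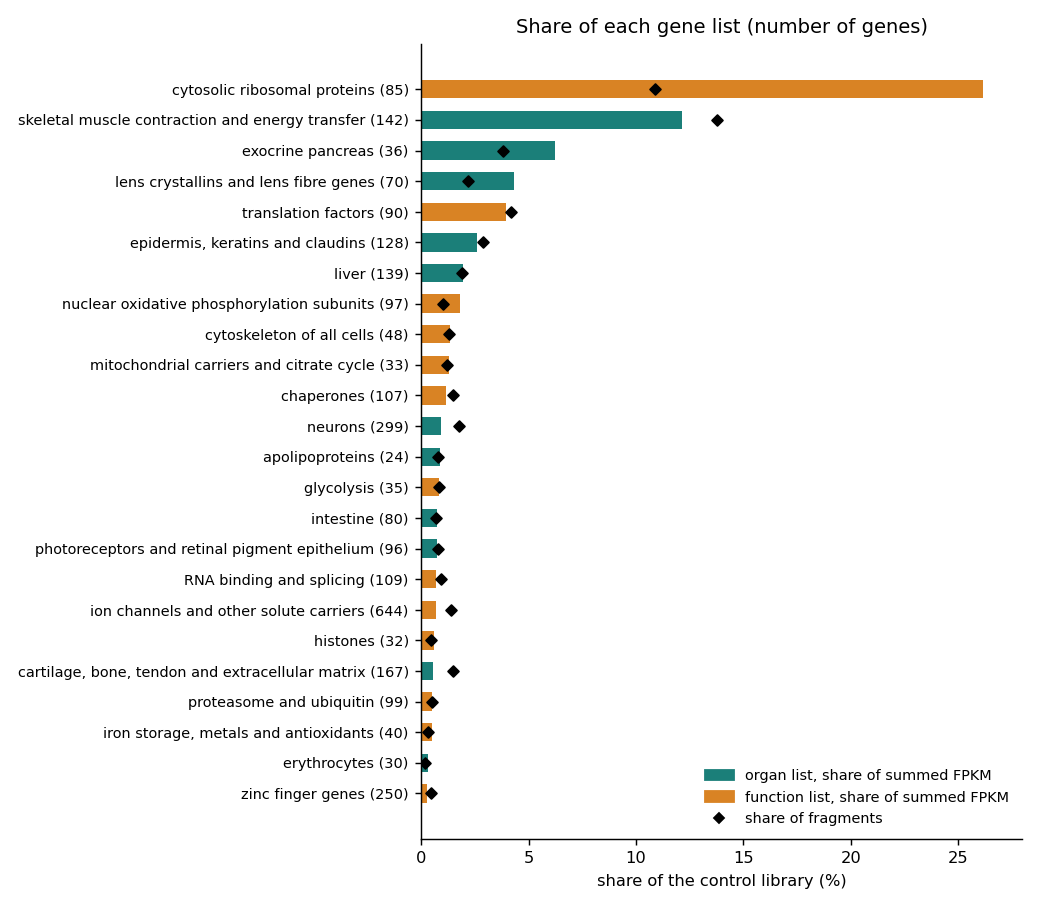
Share (%) of the control library for the 24 largest organ (green) and function (orange) lists, with the number of genes in parentheses. Bars are shares of summed FPKM and diamonds shares of fragments; the ribosomal protein bar ends at 26.18% and its diamond at 10.88%, while for skeletal muscle the diamond (13.77%) lies beyond the bar (12.12%).

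The lists that the genes fell in changed with rank. Since the lists were chosen with earlier results of these data known, high genes may have been listed more readily. The change with rank depends in part on that choice. In the 10 highest genes, organ lists made up 88.2% of the FPKM. In ranks 11 to 100, function lists made up 72.5%, and 59 of the 100 highest genes were ribosomal proteins. From rank 101 to 1000 both kinds were nearly even, at 38.1% and 38.5%. Below rank 1000, genes in no list made up most of the FPKM, 67.9% in ranks 1001 to 5000. The median gene length was 722 bases in ranks 11 to 100 and 2624 bases in ranks 5001 to 10000. Clone-named genes were 2.22% of the genes in ranks 11 to 100 and 32.6% of those below rank 10000.

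**Figure D3:**
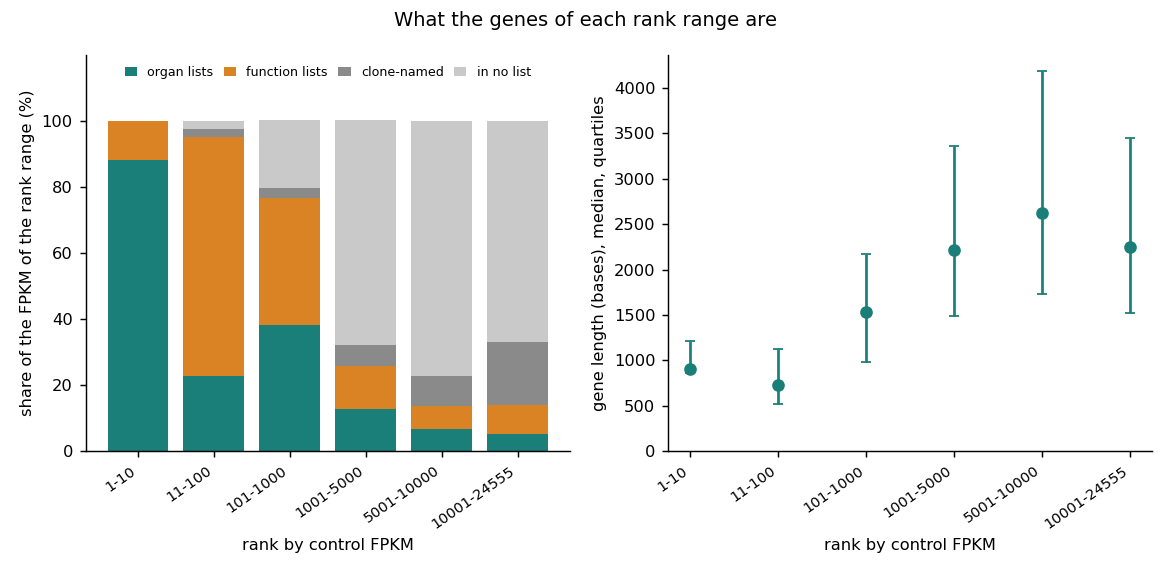
Left, the share (%) of the FPKM of each rank range held by organ lists, function lists, clone-named genes and genes in no list. The lists were chosen with earlier results of these data known. Right, the median gene length in bases of each rank range with its quartiles as bars; organ lists make up 88.2% in the first range, 22.7% in the second, 38.1% from rank 101 to 1000 and 5.21% in the last, and the median length has its lowest value, 722 bases, in ranks 11 to 100.

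The genes of the ribosome were high and even in level. All 85 cytosolic ribosomal proteins were above 1 FPKM, 76 were at 1000 FPKM or more, and their quartiles, 1399 and 2460 FPKM around a median of 2023, differed by 1.76 times. The highest were rps12 at 4083.25 FPKM, rps2 at 3830.98 FPKM and the stalk protein rplp1 at 3814.43 FPKM. The lowest were faub, a precursor that carries a ribosomal protein behind a ubiquitin-like part, at 8.33 FPKM, and the ribosomal-protein-like genes rpl7l1 at 38.07 FPKM, rps27l at 88.47 FPKM and rpl22l1 at 247.57 FPKM. Among genes named for the ribosome itself, rps26 was lowest at 581.95 FPKM, while a near copy outside the list, rps26l, was at 1880.42 FPKM. The 35 small-subunit genes summed to 0.766 times the 46 large-subunit genes (0.762 to 0.769). Some of the 85 genes, and rps26l, are in neither sum, and the interval does not cover that choice.

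Translation factors followed with 87 of 90 genes at or above 1 FPKM, but unlike the ribosome they rested on few genes. The gene eef1a1l1 held 34.51% of the list, and among the elongation factor 1 alpha genes it was 40.3 times the next, eef1a1l2 at 215.25 FPKM. The gene eef1a2, known in mammals as the form of muscle and nerve, was at 1.18 FPKM. High as well were tpt1, the translationally controlled tumour protein, at 2231.42 FPKM, and eef2b, which moves the ribosome along the message, at 1974.64 FPKM. The chaperone of nascent chains naca, counted in the same list, was at 1235 FPKM.

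Skeletal muscle was the largest organ list, and 5 genes held 52.1% of it. Of its 142 genes, 134 were at or above 1 FPKM (94.4%, beside 73.81% of all genes). Thin-filament genes summed to 4.516% of the FPKM of the library, calcium-handling genes to 3.149%, thick-filament and titin genes to 3.031% and creatine kinases to 0.9877%. In the thin filament, actc1b was followed by the tropomyosin tpma at 3958.54 FPKM and the fast troponin T tnnt3b at 3297.27 FPKM. After the light chains mylz3 and mylpfa, the thick filament had the fast myosin heavy chains myhz1.1 at 2748.91 FPKM and myhz1.2 at 2326.89 FPKM. These heavy chains are near copies and neighbours among the listed genes of chromosome 5. At lengths of 6046 and 6005 bases they ranked 2 and 4 by fragments, and 32 and 49 by FPKM.

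Fast-fibre genes stood far above slow-fibre genes. The 5 fast myosin heavy chains summed to 6705.3 FPKM and the 3 slow ones to 317.25 FPKM, a ratio of 21.1 (20.8 to 21.5). Of the slow ones, smyhc1 held most, at 285.86 FPKM. Fast troponins summed to 26.4 times the slow troponins (25.5 to 27.5). The muscle creatine kinases ckma, at 3066.69 FPKM, and ckmb, at 2921.15 FPKM, regenerate ATP from phosphocreatine in muscle, and summed to 11.6 times the brain forms (11.3 to 11.9). Sarcomeric actins summed to 4.21 times the cytoplasmic actins (4.17 to 4.26), of which actb2, at 3485.44 FPKM, was the higher and actb1, at 403.8 FPKM, the lower. The giant protein genes of the sarcomere were low per length: neb, which encodes nebulin, was at 74.22 FPKM and the titin gene ttn.1 at 22.96 FPKM.

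Heart muscle was small beside the trunk. Its 26 genes held 0.03564% of the summed FPKM, and 21 were at or above 1 FPKM (80.8%, near the 73.81% of all genes). The heart markers were the myosin light chain myl7 at 26 FPKM, the ventricular heavy chain vmhc at 23.83 FPKM and the atrial heavy chain myh6 at 1.78 FPKM. Skeletal myosin heavy chains summed to 197 times the 3 cardiac ones (188 to 207).

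The exocrine pancreas, a small gland that secretes digestive enzymes into the gut, had the highest median level of the 23 organ lists. Its 36 genes held 6.22% of the summed FPKM, and 8 of them were among the 100 highest genes. Its median member was at 177.4 FPKM. Elastases summed to 2.143% of the library, trypsins to 2.047% and chymotrypsins to 1.737%. Carboxypeptidases, which trim peptides from the end, summed to 0.3181%, led by cpa5 at 1262.41 FPKM. Enzymes for fat and starch were lower, with the bile salt-activated lipase cel.1 at 455.54 FPKM and the amylase amy2a at 476.68 FPKM. Of the endocrine pancreas, insulin (ins) was at 40.16 FPKM and the glucagon genes gcga and gcgb at 4.27 and 4.12 FPKM.

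The lens list, the proteins of the transparent lens fibres, held 4.325% of the summed FPKM in 70 genes. Gamma crystallins made up 65.35% of the list, beta crystallins 31.38% and alpha crystallins 0.252%. The highest single gene was the beta crystallin cryba4 at 1848.32 FPKM, and the alpha crystallin cryaa, a small heat shock protein, was at 69.37 FPKM. The gamma M2 crystallins of the fish lens were many: 25 genes ranged from 1.22 to 1226.44 FPKM with a median of 740.4, 20 of them at 100 FPKM or more, and summed to 2.525% of the library. They are near copies, so the level of each by itself is uncertain while their sum is firmer. The lens membrane genes lim2.4, at 114.43 FPKM, and mipa, an aquaporin at 35.05 FPKM, were far below the median of the gamma M2 crystallins.

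In the retina, the photoreceptor list of 96 genes held 0.7088% of the summed FPKM. Of these genes, 91 were at or above 1 FPKM (94.8%, beside 73.81% of all genes). The rod opsin rho was the highest at 533.3 FPKM, followed among opsins by the ultraviolet cone opsin opn1sw1 at 324.87 FPKM, the red cone opsin opn1lw2 at 210.42 FPKM, the green opn1mw1 at 159.18 FPKM and the blue opn1sw2 at 84.77 FPKM. The low place of opn1sw2 depends on its listed length of 4309 bases, against 1594 for opn1lw2 and 1579 for opn1mw1. By inferred fragments it had 2780, opn1lw2 2439 and opn1mw1 1826. The cone opsin sum below rests on these lengths as well. Of tandem opsin copies, the red opn1lw1 was at 1.27 FPKM and the green opn1mw2 at 7.46 FPKM. The rod opsin was 0.677 times the 6 cone opsins together (0.656 to 0.698). The green cone opsins opn1mw3 and opn1mw4 were not matched to any gene and are not in this sum. The step after the opsins leaned further to cones, with the rod transducin gnat1 at 26.28 FPKM and the cone transducin gnat2 at 133.87 FPKM, a ratio of 0.196 (0.175 to 0.219). Over all list members, cone phototransduction summed to 0.4045% of the library and rod phototransduction to 0.1062%. The retinoid isomerase of the pigment epithelium, rpe65a, was at 32.5 FPKM.

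Epidermis genes held 2.595% of the summed FPKM, of which keratins made up 86.97%. Highest were krt91 at 2924.02 FPKM, cyt1l at 2696.76 FPKM and krt4, a keratin of the outer skin layer, at 2018.52 FPKM, and krt5 was at 1666.05 FPKM. Claudins, which seal the contacts between cells, were far lower: 42 genes summed to 0.08235% of the library. The list of ionocytes, the skin cells that exchange ions with the water, held 0.1614%, led by the ammonia transporter rhcga at 214.8 FPKM. Its 5 highest genes held 73.38% of it, while its 4 defining markers were at 3.78 to 23.84 FPKM. The share therefore describes the list more than the cells. Of the sodium pump subunits in the list, atp1a1a.4 was at 192.25 FPKM, atp1a1a.1 at 167.45 FPKM and the marker atp1a1a.2 at 23.84 FPKM, and the calcium channel trpv6 was at 3.78 FPKM.

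**Figure D4:**
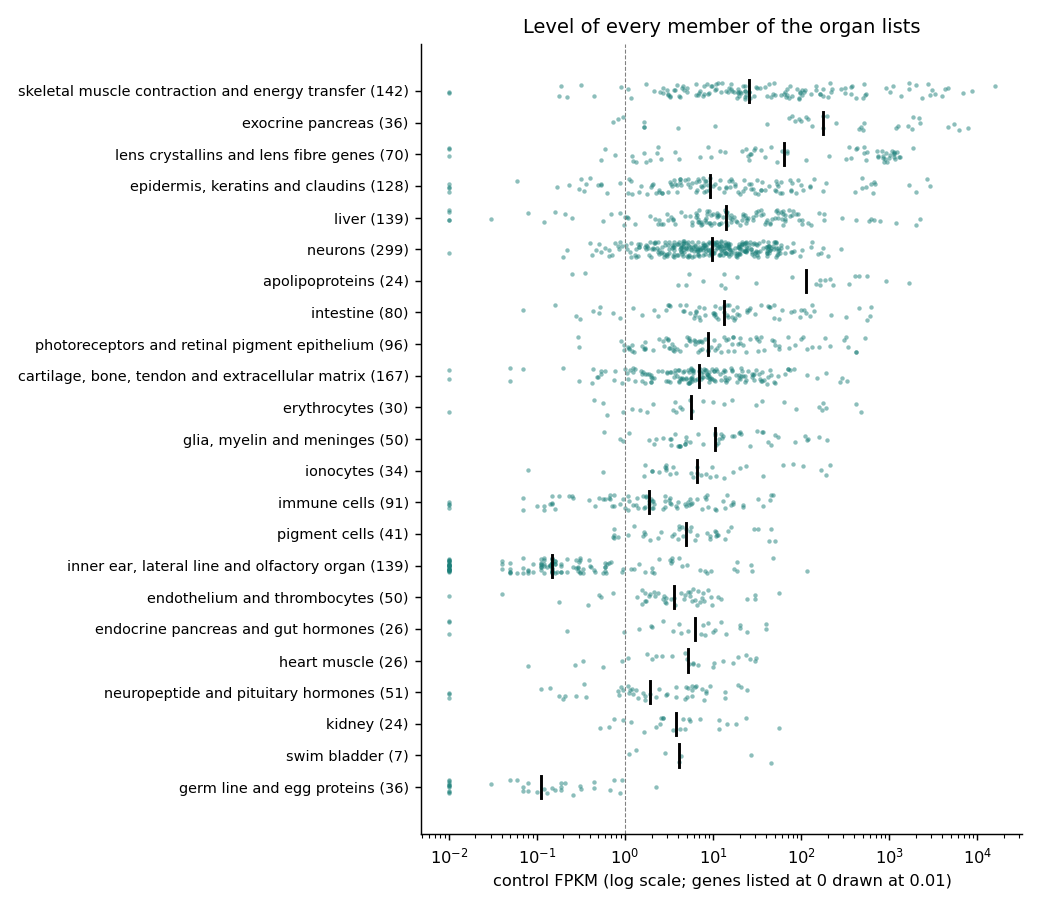
Control FPKM on a log axis of every member of the 23 organ lists, 1 point a gene, with genes listed at 0 drawn at 0.01, the list median as a black bar and 1 FPKM as a dashed line. Exocrine pancreas has the highest median, 177.4 FPKM, while the medians of the germ line list, 0.11, and of the ear and olfactory list, 0.15, lie below 1 FPKM.

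Liver genes held 1.933% of the summed FPKM, and 125 of 139 were at or above 1 FPKM (89.9%, beside 73.81% of all genes). Among the high members were fabp10a, the fatty acid binding protein of hepatocytes, at 1988.68 FPKM, and the plasma protein fetub at 1205.33 FPKM. Transferrin (tfa), which carries iron in plasma, was at 292.03 FPKM and the fibrinogen chain fgb, part of the blood clot, at 60.58 FPKM. Apolipoproteins, the lipid carriers made in liver, gut and yolk syncytium, were counted apart and held 0.881% in 24 genes. Of these apoa1b was at 1680.85 FPKM, apoa2 at 912.12 FPKM and the large apobb.1 at 184.66 FPKM. The intestine list held 0.7284%. It was led by the galectin lgals2b at 626.82 FPKM and the chitinase chia.2 at 608.04 FPKM, and the fatty acid and bile acid binding proteins fabp2 and fabp6 were at 457.06 and 556.56 FPKM.

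The neuron list rested less on its highest genes than the shorter lists of muscle and pancreas did. The neuron list had the most genes of the organ lists, 299, of which 282 were at or above 1 FPKM (94.3%, beside 73.81% of all genes). But it held 0.9309% of the summed FPKM and 1.728% of the fragments, and none of its genes was among the 100 highest. Its 5 highest genes held 16.55% of it, beside 52.1% for skeletal muscle and 66.08% for exocrine pancreas. Such a share depends on the number of genes in a list, 142 for muscle and 36 for pancreas. Other lists of neural tissue were steeper, with 50.99% for the 50 genes of glia, myelin and meninges and 44.77% for the 96 of photoreceptors. The neuron list was led by pvalb7, a parvalbumin of cerebellar Purkinje and other neurons, at 286.04 FPKM. After it came stmn1b, a tubulin regulator, at 202.87 FPKM, and the synuclein sncgb at 177.42 FPKM. The pan-neuronal RNA-binding genes elavl3 and elavl4 were at 50.23 and 40.75 FPKM. Of the vesicle release genes, snap25a and syt1a were at 129.37 and 51.32 FPKM. Vesicle release genes summed to 0.1583% of the library, glutamate genes to 0.05952% and GABA and glycine genes to 0.05801%. The intervals of these last sums, 0.05841 to 0.06063% and 0.05669 to 0.05934%, overlap. Serpini1 itself, which neurons make, was at 20.04 FPKM (17.9 to 22.35), rank 2801, higher than 88.6% of all genes.

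Glia, myelin and meninges held 0.2151%, led by the glutamine synthetase glula at 197.66 FPKM, with the meningeal protein epd at 157.85, the astroglial filament gene gfap at 55.17 and the myelin gene mbpa at 44.99 FPKM. Neuropeptide and pituitary hormones held 0.03447%. The pituitary was led by growth hormone (gh1) at 19.28 FPKM, with pomca at 6.46 and prolactin (prl) at 2.24 FPKM. In the list of the ear, lateral line and nose, 113 of 139 genes were below 1 FPKM. Of its 95 chemoreceptor genes, which are each used by few sensory cells, 0 reached 1 FPKM, the highest was at 0.93, and 24 were listed at 0.

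Blood was read mainly through embryonic and larval globins. Globins made up 86.38% of the erythrocyte list, which held 0.2958% of the library. The highest were hbae3 at 476.6 FPKM and hbbe1.1 at 415.39 FPKM, and the adult alpha globin hbaa1 was listed at 0. The other adult globin symbols sought, hbaa2, hbba1, hbba2 and hbba1.1, were not matched to any gene, so their levels were not read. Alpha chains summed to 836.48 FPKM and beta chains to 802.82 FPKM, a ratio of 1.04 (0.991 to 1.1) that counting error does not separate from equal. Immune cells held 0.08232%, with 60 of 91 genes at or above 1 FPKM (65.9%, beside 73.81% of all genes). Its highest members, ccl25b at 47.91, b2ml at 46.01 and mhc1zba at 44.71 FPKM, were above lyz, the highest of the neutrophil markers. Neutrophil markers summed to 0.01543% and macrophage markers to 0.01458%, sums whose intervals overlap, and lymphocyte markers to 0.001908%, with 2 of 14 at or above 1 FPKM. The neutrophil and macrophage lysozyme lyz was at 36.4 FPKM, the macrophage perforin mpeg1.1 at 3.97 FPKM, and rag1, which recombines antigen receptor genes in the thymus, at 1.38 FPKM. The neutrophil sum of 99.1 FPKM counts lyz, and the macrophage sum of 93.59 FPKM counts hexb at 32.35 FPKM. Since lyz belongs to both cell types, these sums do not compare the cell types cleanly.

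Connective tissue held 0.5265% of the summed FPKM but 1.449% of the fragments, its genes having a median length of 3831 bases. The type I collagen chains col1a1a, at 327.26 FPKM, and col1a1b, at 277.5 FPKM, and the collagen-binding sparc, at 290.22 FPKM, were highest, and the cartilage collagen col2a1a was at 151.3 FPKM. The bone gene bglap was at 1.05 FPKM. Endothelium and thrombocytes held 0.05133%, with the vascular receptor kdrl at 9.5 FPKM and the thrombocyte integrin itga2b at 0.18. Pigment cells held 0.06262%, with the melanin gene tyrp1b at 50.49 FPKM.

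The organ lists with the lowest shares of summed FPKM were kidney, swim bladder and germ line. By fragments, neuropeptide and pituitary hormones, at 0.02395%, and endocrine pancreas and gut hormones, at 0.0417%, were below swim bladder, at 0.05051%. All of these, the list of the ear, lateral line and olfactory organ, at 0.05804%, and heart, at 0.06555%, were below kidney, at 0.07498%. The endocrine list counts pcsk1, neurod1 and adcyap1b as well, at 0.0131%, 0.00879% and 0.0064% of the fragments, beside 0.00183% for ins. The slit-diaphragm gene of the kidney filter nphs1 was at 0.52 FPKM, and the 24 kidney genes held 0.02949%. Of the 36 germ line and egg genes, 1 was at or above 1 FPKM, the egg coat gene zp3a.2 at 2.23, and 10 were listed at 0. The germ cell helicase ddx4 was at 0.76 FPKM and the egg yolk precursor vtg1 at 0.03 FPKM. Of 7 swim bladder genes, all were at or above 1 FPKM, beside 73.81% of all genes. The surfactant lipid transporter abca3b, at 45.74 FPKM, held 52.93% of the list. The surfactant proteins sftpbb and sftpba were at 4.14 and 1.11 FPKM, and the interval of sftpba, 0.4432 to 2.271 FPKM, spans 1 FPKM. For a pool of whole bodies these are levels per total RNA and say nothing of the level within the organ.

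Nuclear subunits of the respiratory chain and ATP synthase held 1.794% in 97 genes, 95 of them at or above 1 FPKM. Of that list, the ATP synthase made up 43.99%, complex I 24.28% and complex IV 20.01%. The mitochondrial ADP/ATP carrier slc25a5 was by itself at 3486.5 FPKM, 42.89% of its list of carriers and citrate cycle genes. In glycolysis, all 35 genes were at or above 1 FPKM, led by gapdh at 1976.62 FPKM and the muscle enolase eno3 at 640.28 FPKM. The chaperones hsp90ab1 and hspa8, both expressed without stress, were at 1727.87 and 1559.15 FPKM.

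Other general functions each took a small share. The cytoskeleton of all cells held 1.342%, led by actb2 and by the actin-binding genes tmsb4x, a thymosin beta that holds actin monomers, at 964.95 FPKM, and pfn1, a profilin, at 690.22 FPKM. RNA-binding and splicing genes held 0.6975%, and the cold-inducible RNA-binding gene cirbpb was highest at 820.23 FPKM. Histones and other chromatin proteins held 0.5678%, with the linker histones histh1l at 546.38 FPKM and h1f0 at 520.42 FPKM at the top. Proteasome and ubiquitin genes held 0.508%, with ubc at 423.62 FPKM and ubb at 263.87 FPKM, both of which encode ubiquitin chains. Genes of iron storage and antioxidant defence held 0.4702%, led by the ferritin genes fth1a at 685.39 FPKM and fthl27 at 416.76 FPKM, with the peroxiredoxin prdx2 at 373.03 FPKM. Lysosomal genes held 0.2231%, led by the cathepsin ctsla at 265.89 FPKM. The 644 ion channels and other carriers together held 0.6756%, and their median was 3.13 FPKM. The highest of them was slc3a2b, the heavy chain of amino acid exchangers, at 169.62 FPKM.

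The gene ontology terms deposited with the genes gave a view that did not use the lists. Of the genes, 17250 had at least 1 term. The 153 genes annotated as structural constituents of the ribosome held 25.9% of the summed FPKM, beside 26.18% for the ribosomal list, and rps12 was the highest in both. These sets are not the same: the annotated genes had a median of 839.6 FPKM and the 85 listed genes 2023 FPKM. Their shares are therefore no check of each other. Calcium ion binding took 6.791% in 629 genes, led by pvalb2, and serine-type endopeptidase activity 5.739% in 142 genes, led by cela1.6. A gene can carry several terms, so these shares are not parts of a whole.

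Genes of dividing cells took a small share. The 46 cell cycle and replication genes held 0.03439%, with pcna, the sliding clamp, at 34.17 FPKM and mki67, present in cycling cells, at 3.27 FPKM. The list of Hox and other patterning transcription factors had a median of 3.24 FPKM, beside 3.44 over all genes. Of 47 Hox genes, 37 were at or above 1 FPKM, beside 73.81% of all genes, and the highest was hoxb3a at 13.86 FPKM. All 38 circadian clock genes were at or above 1 FPKM, beside 73.81% of all genes, with the repressors bhlhe40 at 123.16 and nr1d1 at 122.16 FPKM. The hour of collection was not stated in the labels. Of 249 G protein-coupled receptors, 126 were at or above 1 FPKM (50.6%, beside 73.81% of all genes), with a median of 1.03 FPKM.

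Within families of related genes, most of the level sat in 1 or a few members. Parvalbumins spanned from pvalb2 at 8725.49 to pvalb3 at 13.85 FPKM, and pvalb2 held 51.06% of their sum. Sarcomeric and cytoplasmic actins had 78.24% in actc1b, and fatty acid binding proteins had 54.89% in fabp10a. Globins were more even, with 29.07% in hbae3, as were the sodium pump alpha subunits, with 34.53% in atp1a1a.4. The near copies among actins, fast myosins, globins, trypsins and crystallins can share reads, so the division between copies is uncertain.

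**Figure D5:**
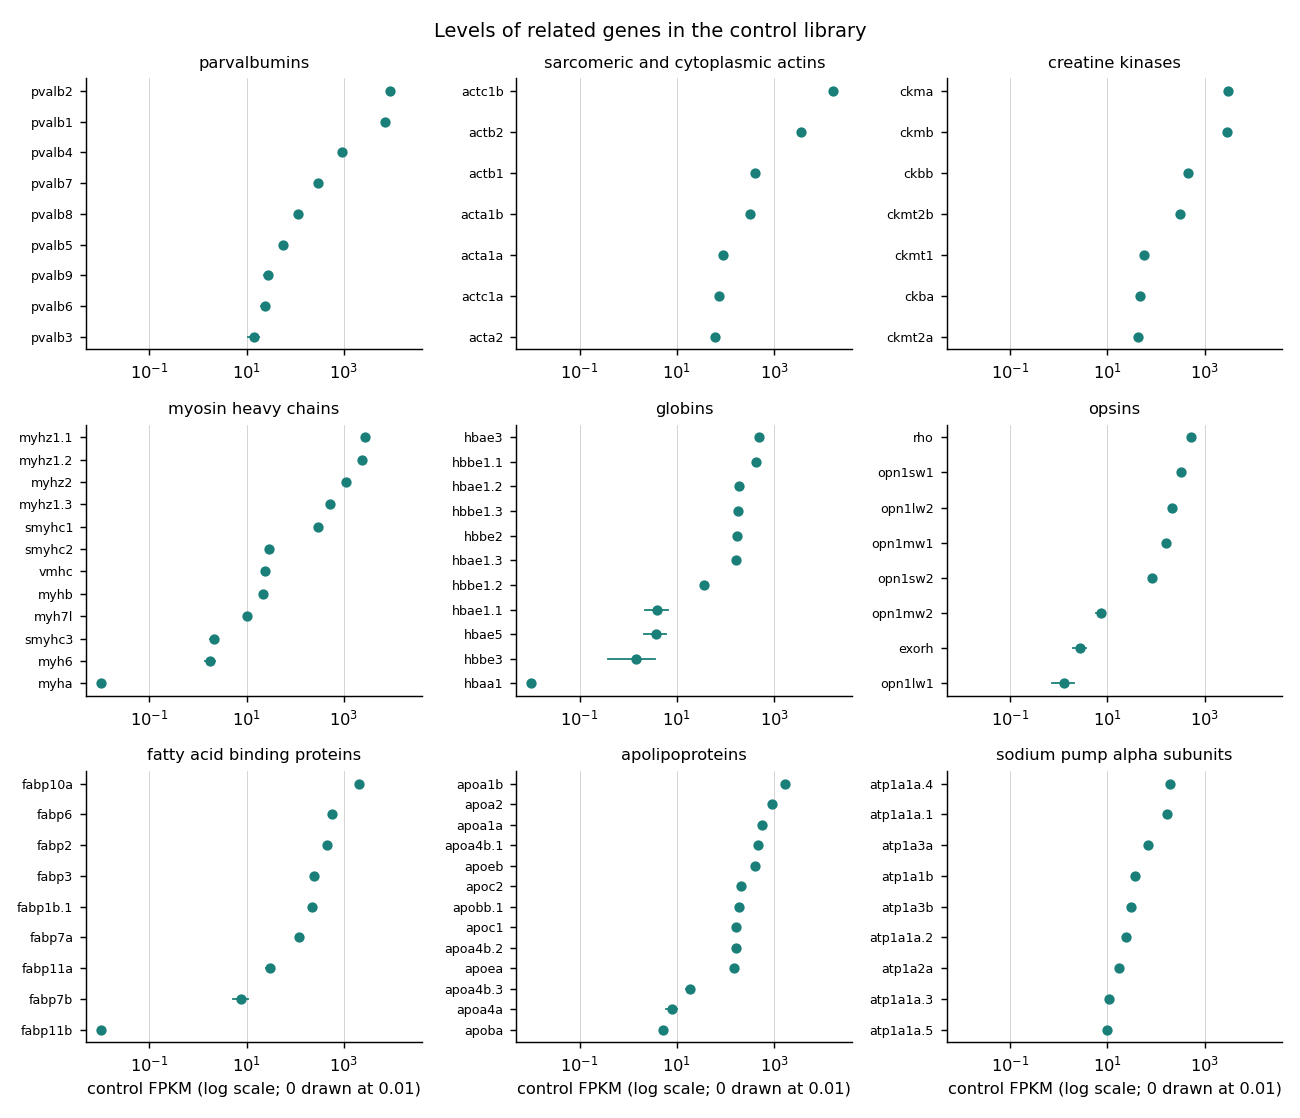
Control FPKM on a log axis for the members of 9 families, 1 point a gene with its 95% counting interval as a line; genes listed at 0 are drawn at 0.01. In each family the members spread over at least 1 order of magnitude, as from pvalb2 at 8725.49 to pvalb3 at 13.85 FPKM.

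Some of the highest genes lay side by side in the genome. Only genes with a control value and a RefSeq position were placed, so neighbours here can have another gene between them. In the gene order of RefSeq, 18.5% of the 200 highest genes (37 genes in 12 runs) were next to another of the 200, compared with 1.01 to 9.5% in 7 other ranges of 200 consecutive ranks, and no test was made of this difference. The longest run was 11 gamma M2 crystallins on chromosome 9, and the next 6 keratins on chromosome 19. Other runs were pairs such as the beta crystallins crybb1 and cryba4, the elastases ela2l and ela2, the trypsins prss59.1 and prss59.2 and the parvalbumins pvalb4 and pvalb1. In 2 pairs the neighbours came from different lists, pfn1 with eno3, and rplp2 with rps26l.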

How the data were processed

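RNA from whole larvae was prepared as 1 library per group, with the standard Illumina workflow, per the labels. The submitters' processing notes name HISAT, StringTie, DESeq2 and, as the build, GRCz11; roles and the use of strand are not stated. The authors deposited FPKM per gene, per the file headers, in a table of all libraries (19700 genes used, none under 0.58 FPKM in the knockout) and in a transgenic-versus-control comparison, from which 4855 genes were added. There the authors wrote 0 as 0.01, and 950 such values were taken as 0. Where both tables held a gene above 0, all 19605 values were equal within 0.005. The deposited log2 ratios were not used.

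The depth was inferred from the authors' deposited p-values of genes listed at 0 in 1 library. Read as Poisson comparisons, they gave whole fragment numbers within 0.05 for 1012 of 1012 and 653 of 653 genes. A fit of fragments to FPKM over 71 genes (coefficient of variation 3.84%) gave 7810000 control fragments with a length offset of 110 bases, and 22 genes with fragments of the control itself gave 7720000. On data simulated with the same formulas, the step recovered the depth within 2%. That checks the calculation only, not whether the authors' values follow these formulas. Intervals are Poisson, at 95%, and sums were given normal ones.

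Each gene was counted in the first of 42 lists that holds it. Members and lists were chosen with earlier results of these data known. Of 1809 symbols written, 1552 matched deposited symbols, 149 RefSeq symbols and 16 RefSeq synonyms (assembly GRCz12tu, used for names and gene order). Genes named were the 30 highest, the 6 highest and the defining markers of each list, the members of 15 families and serpini1; others were chosen after their values were seen. Python 3.11.15, pandas 2.3.3, numpy 2.4.6 and scipy 1.17.1 were used. Alternatives weighted genes by fragments, dropped low, added or top genes, counted genes in every list, or moved the threshold. Knockout values and the knockout comparison were not used. A few genes that the naming rule covers are not reported here.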

Additional observations from a re-analysis of the deposited data

How the results depend on the processing

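No paired analysis was possible because each group had 1 library and no test was made. Weighting by FPKM times length moved the share of the highest gene to 1.994%, of the 10 highest to 10.19%, of the 100 highest to 31.64% and of the organ lists to 31.15%, and the genes for 50% to 413. With the length less 110 bases, an alternative chosen after seeing the data, these were 1.958%, 10.29%, 31.07%, 31.09% and 458 genes. With genes at 1 FPKM or more alone, the 10 highest held 11.47%, the 100 highest 45.12% and the organ lists 32.14%; with the table of all libraries alone, the last 2 were 45.07% and 32.11%. Without the 10 highest genes the organ lists held 24.8%. Without the ribosomal proteins, also chosen after seeing the data, the shares were 3.357%, 15.49%, 43.16% and, for the organ lists, 43.41%. A threshold of 5 FPKM left 9900 genes. Shares here moved by more than their counting intervals, which are narrow; of 70 settings on 14 single lists, 33 stayed within them. With 1 library, the spread between clutches, days or preparations is not known.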

Other observations

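Genes outside the lists included several of the highest. The nucleoside diphosphate kinases nme2b.2 and nme2b.1, neighbours among the listed genes of chromosome 19, were at 3268.4 and 1206.06 FPKM. The adenylate kinase ak1 was at 1322.69 FPKM. The RNA-binding genes ybx1 and serbp1a were at 1189.36 and 807.65 FPKM, and the mitochondrial uncoupling protein ucp1 at 829.21 FPKM. The glutathione-degrading enzyme chac1 was at 634.12 FPKM and the transcription factor cebpd at 397.54 FPKM. Of clone-named genes, zgc:171772, whose deposited protein match is a ribosomal protein L37a-like sequence, was at 2935.57 FPKM, and zgc:114188, matched to an uncharacterized protein, at 2284.87 FPKM; neither was counted in the ribosomal list.

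Genes often used as references for normalization ranged widely in level. From eef1a1l1 at 8683.73 FPKM and actb2 at 3485.44 FPKM they went down through rpl13a at 1822.53, sdha at 85.98, hprt1 at 9.37 and tbp at 7.89 to tuba1b at 3.17 and b2m at 2.84 FPKM.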
